A study of Mus musculus with 6 samples.

Results

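The Slitrk genes are a family of 6, Slitrk1 to Slitrk6, and all of them were represented on the arrays. Their members were taken as every probe set (a group of short array probes read out as 1 value) whose platform annotation gave exactly 1 symbol and that symbol a Slitrk gene, which gave 8 of 45037 probe sets and 6 of 18193 genes. Slitrk2 and Slitrk4 had 2 probe sets each and the others 1. The tissue was the stria vascularis, a potassium secreting epithelium on the outer wall of the cochlear duct. The arrays held 3 pools labelled Errb mutant, from mice with a conditional mutation of Esrrb (also named Errb or Nr3b2, the gene of estrogen-related receptor beta, a nuclear receptor with no known hormone), and 3 wild type pools. Each pool came from 10 mice and was hybridised to 1 array. The sources used here do not give the driver of the conditional deletion, the strain or the sex of the mice. Of the 6 pools, wild type replicate 1 alone carries an age, 3 to 5 days after birth, and the design text names pooled inner ears where the labels name stria vascularis. Mutant and wild type arrays were paired by replicate number, and each difference is the log2 value of Errb mutant less that of wild type, given as the mean ± SD of 3 pairs.

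Slitrk proteins cross the cell membrane once. Their outer part carries leucine-rich repeats like those of the axon guidance protein Slit, and the inner tail of most members resembles that of the neurotrophin receptors of the Trk family, which gave the family its name. They are best known in the nervous system, where they shape neurite growth and, by binding receptor phosphatases of the LAR type on a facing axon, organise synapses. In the ear, Slitrk6 is the member with a known role: its loss causes deafness with myopia in people and reduces cochlear innervation in mice.

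Most strial markers stood above the low end of the arrays under both labels. The 25th percentile, used here and below, is passed by most probe sets by definition and does not show a level above background. On every mutant array 11 of 12 marginal, 13 of 14 intermediate and 6 of 6 basal cell markers stood at or above the 25th percentile of the probe sets, and on every wild type array 12, 13 and 6 did. The 3 Esrrb probe sets differed by -0.07 ± 0.21, -0.18 ± 0.43 and -0.42 ± 0.46, and since no source used here places them inside or outside the deleted part, the labels cannot be checked with them. Array medians lay between 6.08 and 6.94 in the mutant and between 6.07 and 6.95 in wild type, and were alike within pairs. In pair 1, 34.2% of probe sets had exactly the same value on both arrays. For Gapdh the signal of the 3′ control minus that of the 5′ control, a sign of RNA quality, was largest in pair 1, with 2.57 in the mutant and 2.28 in wild type, against 0.16 to 0.51 on the other mutant arrays and -0.04 to 0.21 on the other wild type arrays. Nothing beyond the sample labels says that the pools were independent, and p-values cover the spread over these 6 arrays alone.

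Slitrk4 was the member that stood apart. The family was selected on this value, the Slitrk4 difference in an earlier look at the same arrays, so it is given as a description, and any call of it below is a count that supports nothing. The best expressed Slitrk4 probe set (1437744_at) read 7.75, 8.04 and 7.89 (log2) in Errb mutant replicates 1 to 3, against 5.30, 5.74 and 5.42 in the wild type replicates. All 3 mutant arrays lay above all 3 wild type arrays, by more than the spread within either genotype, with means of 7.89 ± 0.14 in the mutant and 5.49 ± 0.23 in wild type (SD, n = 3 each). The difference was 2.41 ± 0.09, or 5.30-fold, and the pairs gave 2.45, 2.30 and 2.47. On the mutant arrays the probe set stood at the 68.8 to 78.2 percentile of all probe sets, and on the wild type arrays at the 26.9 to 34.8 percentile. Signal over background is not given for these values, so the wild type level may include background and the fold is uncertain. By best expressed probe sets, its difference was the highest of 18193 genes. With bulk tissue, a changed number of cells of a type and a changed amount of RNA per cell cannot be told apart, here or in any value below.

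The second Slitrk4 probe set (1440516_at) showed a smaller difference in the same direction. It read 6.49, 6.25 and 6.21 in the mutant replicates, against 4.86, 5.41 and 4.54 in the wild type replicates. Its groups did not overlap either, and the difference was 1.38 ± 0.47, or 2.60-fold, with 1.63, 0.84 and 1.67 in the pairs. The best expressed probe set differed by more than this one in every pair, by 0.82, 1.46 and 0.80. Both probe sets had their smallest difference in pair 2, whose wild type value was the highest of the 3. The arrays of pair 2 also had the highest medians, 6.94 in the mutant and 6.95 in wild type. Relative to the array median, wild type replicate 2 was not the highest for either probe set. It stood at -1.21 (best expressed) and -1.54 (second), against -0.77 and -1.21 in wild type replicate 1. On that scale mutant replicate 2 was the lowest mutant array for both, at 1.10 and -0.69.

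**Figure D1:**
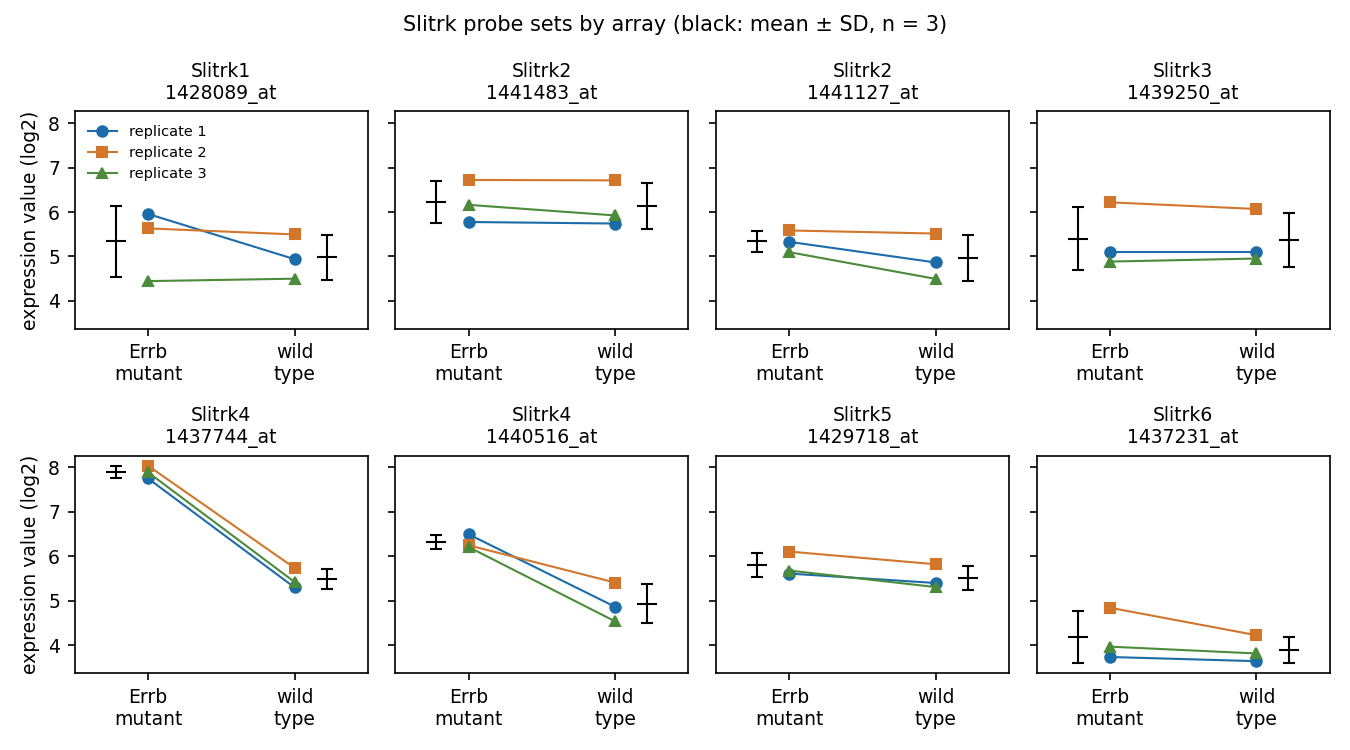
Expression value (log2) of each of the 8 Slitrk probe sets on the 3 Errb mutant and 3 wild type arrays. Coloured points joined by a line are 1 pair of arrays, and black marks are the mean ± SD of 3 arrays. Only in the 2 Slitrk4 panels do all mutant arrays lie above all wild type arrays.

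Across the family, 1 of 8 probe sets passed in the paired fit (limma with the replicate number as a block, Benjamini-Hochberg adjusted p under 0.05), the best expressed one of Slitrk4. Over all probe sets 0.0933% passed, 0.0111% as higher and 0.0822% as lower in the mutant. Before adjustment 4 of 8 Slitrk probe sets had p under 0.05, all higher, while over all probe sets 4.11% did as higher and 3.07% as lower. Without the replicate block 0 Slitrk probe sets passed, against 0.00666% of the table, and 2 Slitrk probe sets, both of Slitrk4, were under an unadjusted p of 0.05, against 0.209% of the table. In limma without replicate 2 and without replicate 3, 0 of all probe sets passed, those of Slitrk4 included, and the best expressed Slitrk4 probe set differed by 2.46 and 2.38. In those fits 3 and 3 of the 8 Slitrk probe sets, and 1989 and 2664 of all probe sets, were under an unadjusted p of 0.05. The groups did not overlap, with the mutant higher, for 2 of 8 Slitrk probe sets and 0.764% of all probe sets. Since Slitrk4 chose the family, nothing is read from these shares.

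The mean difference was above 0 for 8 of 8 Slitrk probe sets, where 48.8% of all probe sets were above 0. In all 3 pairs 6 of 8 were higher in the mutant, where 12.1% of all probe sets were. Both counts include the Slitrk4 probe sets, whose gene chose the family, so nothing is read from them. The probe sets of 1 gene share their RNA, and the size of most of these differences was small. The family median over 8 probe sets was 0.29 ± 0.06, and 0.16 ± 0.03 over the 6 probe sets of the other genes, beside a median of 0 for all probe sets in each pair. The other 6 are described here in turn, and none passed over all probe sets.

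Slitrk2 is the closest family neighbour of Slitrk4 by position, as both lie on the X chromosome, and its human counterpart has been tied to X-linked intellectual disability. Its best expressed probe set (1441483_at) read 5.78, 6.72 and 6.16 in the mutant replicates, against 5.74, 6.71 and 5.92 in the wild type replicates. The values followed the pair and hardly the genotype. The difference was 0.09 ± 0.13, with a 95% interval of -0.10 to 0.29 and adjusted p = 0.776 (limma, paired). Its other probe set (1441127_at) read 5.33, 5.58 and 5.10 in the mutant, against 4.86, 5.52 and 4.49 in wild type. Here the mutant was higher in all pairs, by 0.46, 0.069 and 0.60, but the genotypes overlapped, and the difference of 0.38 ± 0.28 did not pass (adjusted p = 0.581, paired limma). The 95% interval of this second difference was 0.08 to 0.68.

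Slitrk1, which regulates neurite outgrowth and has been studied in Tourette syndrome, had its widest difference in pair 1. It read 5.96, 5.63 and 4.45 in the mutant replicates, against 4.94, 5.50 and 4.50 in the wild type replicates. The mutant exceeded wild type by 1.02 in pair 1, by 0.14 in pair 2 and not in pair 3 (-0.055). The mean of 0.37 ± 0.57 was smaller than its spread over pairs and did not pass (adjusted p = 0.750, paired limma). Without replicate 1 the difference was 0.04. The median difference of neuron markers was also widest in pair 1, though not every marker followed this, and 0 of 18 passed in either fit. Their mean difference was above 0 in 15 of 18, where 51.3% of all genes were, their median difference was 1.03 in pair 1 against 0.14 and 0.15 in pairs 2 and 3, and their summed level (linear scale) ranged from 4017 to 5520 in the mutant and from 2889 to 5872 in wild type. On every mutant array 13 of the 18 stood at or above the 25th percentile, and on every wild type array 13. Most of all probe sets do so by definition. The part of neuronal RNA in the Slitrk1 values was not tested. Without replicate 1, Slitrk4 differed by 2.38 by its best expressed probe set and by 1.26 by the other.

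Slitrk3, which organises inhibitory synapses through the phosphatase Ptprd, differed little between the genotypes. It read 5.10, 6.22 and 4.89 in the mutant replicates, against 5.10, 6.07 and 4.95 in the wild type replicates. The 2 arrays of pair 1 held exactly the same value, and the other pairs differed by 0.15 and -0.068, giving 0.03 ± 0.11. The 95% interval of -0.16 to 0.22 bounds the difference (adjusted p = 0.930, paired limma).

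Slitrk5, whose loss in mice gives compulsive-like grooming, showed a small difference that was even over the pairs. It read 5.61, 6.11 and 5.68 in the mutant replicates, against 5.40, 5.82 and 5.31 in the wild type replicates. The mutant was higher by 0.21, 0.29 and 0.37, a mean of 0.29 ± 0.08 or 1.22-fold. The genotypes overlapped, and the difference did not pass over all probe sets (adjusted p = 0.449, 95% interval 0.11 to 0.47, paired limma).

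Slitrk6, the member with a known cochlear role, was read near the low end of the arrays in both genotypes. Its probe set stood at the 9.47 to 13.5 percentile on the mutant arrays and at the 5.75 to 8.88 percentile on the wild type arrays, and signal over background is not given, so a level above background is not shown. It read 3.73, 4.84 and 3.97 in the mutant replicates, against 3.64, 4.22 and 3.81 in the wild type replicates. The mutant was higher by 0.094, 0.62 and 0.15, a mean of 0.29 ± 0.29 that did not pass (adjusted p = 0.721, paired limma). Pair 2, where the difference was widest, was also the pair in which some genes of the sensory epithelium were highest in the mutant. Of the 17 sensory epithelium and supporting cell markers, 11 were above 0, with median differences of -0.08, 0.16 and 0.06 in pairs 1 to 3. Tectb, a tectorial membrane gene chosen after its values were seen, was higher by 2.36 in pair 2, against -0.12 and 0.27 in the others. Sox2, a transcription factor of supporting cells, differed by 0.72, 1.59 and 0.06. The summed level of these markers ranged from 6158 to 15160.5 in the mutant and from 6325 to 12864 in wild type, 2 of the 17 stayed under the 25th percentile on every array, and their part in the Slitrk6 values was not tested.

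**Figure D2:**
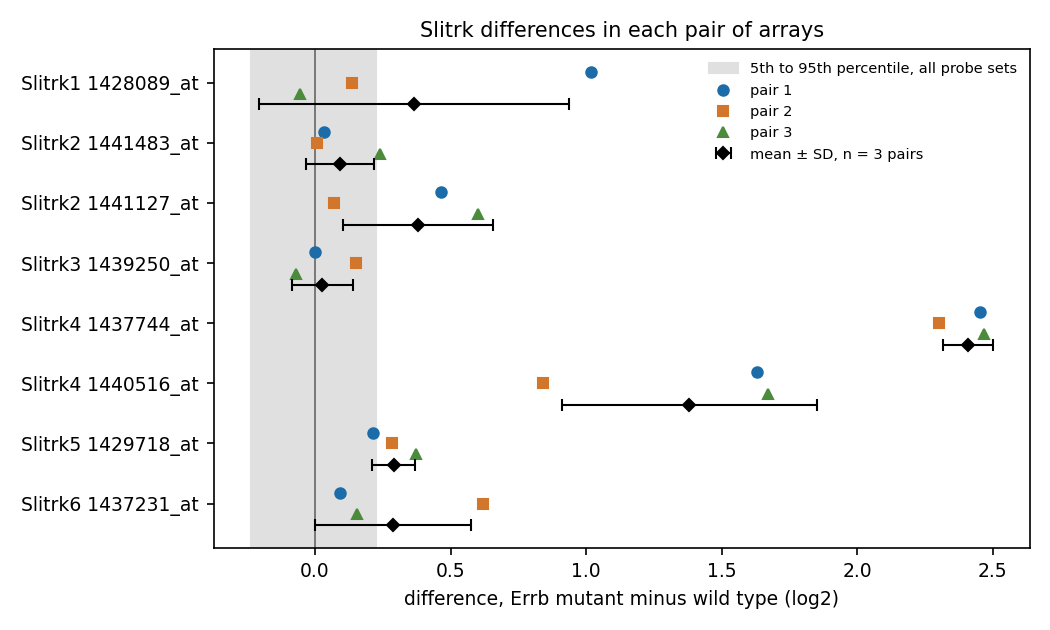
Difference (Errb mutant minus wild type, log2) of each Slitrk probe set in each of the 3 pairs, with the mean ± SD of the pairs in black. The grey band is the 5th to 95th percentile of mean differences over all probe sets (-0.24 to 0.23). The mean differences lie inside the band for Slitrk3 and 1 Slitrk2 probe set, just above it for Slitrk1, Slitrk5, Slitrk6 and the other Slitrk2 probe set, and far above it for both Slitrk4 probe sets.

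The start regions of the other members ranged widely in base composition. RefSeq windows of 250 bases before to 50 bases after a gene start (GRCm38.p6) were given for 5 of the 6 genes, with 6 windows in all, and Slitrk4 was not among them. The windows of Slitrk5 and Slitrk6 are shown because both genes lie on chromosome 14 and had mean differences of the same size, with the most and the least CpG-rich of the 6 windows. In the lines below, 5′ to 3′ on the gene's strand, capitals mark each CpG. The Slitrk5 window (chr14:111675777-111676076, plus strand) had 74.3% G and C and 35 CpG, and the Slitrk6 window (chr14:110755100-110755399, minus strand) had 38.3% and 4, beside medians of 52.7% and 7 over all 32851 windows. The other 4 windows lay between these, with 42.3% for Slitrk1, 58% for Slitrk3 and 59.3% and 60.3% for Slitrk2.
Slitrk5: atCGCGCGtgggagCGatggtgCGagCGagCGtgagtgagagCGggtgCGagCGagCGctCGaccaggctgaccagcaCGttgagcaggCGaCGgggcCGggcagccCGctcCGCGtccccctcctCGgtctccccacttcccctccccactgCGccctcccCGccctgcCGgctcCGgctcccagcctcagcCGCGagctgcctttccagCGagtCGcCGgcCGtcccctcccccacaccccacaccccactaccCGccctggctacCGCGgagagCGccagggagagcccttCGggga
Slitrk6: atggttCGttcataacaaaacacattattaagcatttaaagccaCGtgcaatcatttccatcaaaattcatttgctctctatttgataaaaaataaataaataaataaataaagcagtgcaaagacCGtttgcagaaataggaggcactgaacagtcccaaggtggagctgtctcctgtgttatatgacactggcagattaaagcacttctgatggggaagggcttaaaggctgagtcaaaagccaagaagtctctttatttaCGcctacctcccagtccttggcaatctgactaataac
Neither the estrogen-related receptor element TNAAGGTCA nor its core AGGTCA, which lies within it, was found on either strand in any of the 6 windows. The element was present in 1.28% and the core in 16.3% of all windows. These letters are absent from these windows, and nothing follows about binding elsewhere.

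The phosphatases that Slitrk proteins bind were well expressed, and none passed. Here and in the lists that follow each gene stands by its best expressed probe set, by which 0.148% of 18193 genes passed, 0.0165% as higher and 0.132% as lower in the mutant. At an unadjusted p under 0.05 the shares were 4.04% higher and 3.31% lower. Ptprd, Ptprs and Ptprf, the receptor phosphatases of the LAR type, had mean differences above 0 in 3 of 3, where 51.3% of genes did. Ptprd read 10.47, 10.53 and 10.46 in the mutant replicates, against 10.35, 10.38 and 9.87 in the wild type replicates. Its difference of 0.28 ± 0.26 (adjusted p = 0.704, paired limma) came mostly from pair 3. Ptprf differed by 0.25 ± 0.24 (adjusted p = 0.724), with 0.011, 0.24 and 0.49 in the pairs. The list median of 0.25 ± 0.24 became 0.02 when all probe sets of each gene were averaged. In limma 0 of the 3 passed with or without the replicate block, and 0 were under an unadjusted p of 0.05 in the paired fit.

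Other adhesion proteins that bind the same phosphatases, directly or through a partner, included 10 of 11 with a mean difference above 0, with a median of 0.21 ± 0.17. In limma 0 of the 11 passed in either fit, and 4 were under an unadjusted p of 0.05 in the paired fit, all higher. Lrrtm4, a synaptic leucine-rich repeat protein, differed by 0.27 ± 0.05 (adjusted p = 0.454, paired), and the neurotrophin receptor gene Ntrk3, which also binds Ptprs, by 0.30 ± 0.14 (adjusted p = 0.516). Over the wider set of leucine-rich repeat membrane proteins the median was 0.06 ± 0.06, with 23 of 37 measured genes above 0. None of the 37 passed in either fit, and 5 were under an unadjusted p of 0.05 in the paired fit, all higher. Flrt2, an adhesion protein that binds Unc5 receptors, differed by 0.31 ± 0.05 (adjusted p = 0.374, paired limma). Lrrtm4 and Ntrk3 stand in more than 1 list, and several other members are shared.

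The proteins for which the family is named gave no call. Of 7 Slit and Robo genes 0 passed in either limma fit, 2 higher and 1 lower were under an unadjusted p of 0.05 in the paired fit, and their median was 0.02 ± 0.03. Slit3, a guidance ligand, read 6.05, 7.38 and 6.77 in the mutant replicates, against 6.65, 7.80 and 7.09 in the wild type replicates. It was lower in all 3 pairs (-0.44 ± 0.14, adjusted p = 0.308), while the receptor gene Robo1 was higher in all 3 (0.36 ± 0.19, adjusted p = 0.479; both paired limma). Neither passed. Of 5 neurotrophin and receptor genes 0 passed in either fit and 1, Ntrk3, was under an unadjusted p of 0.05 in the paired fit. Ngfr, the low-affinity neurotrophin receptor gene that Schwann cells also express, differed by 1.05 in pair 1 and by 0.13 and 0.13 in the others (0.43 ± 0.53, adjusted p = 0.730, paired limma). The median of the 5 was 0.16 ± 0.05. Neurexins and neuroligins, other organisers of synapses, had a median of 0.06 ± 0.03 over 5 genes, of which 0 passed in either limma fit and 0 were under an unadjusted p of 0.05 in the paired fit. Nrxn2 differed by 0.18 ± 0.15 (adjusted p = 0.732) and Nlgn3 by -0.14 ± 0.14 (adjusted p = 0.750).

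Among markers of the cell types in the dissected tissue, the calls were all lower in the mutant and all of marginal or basal cells. Marginal cell markers had a median of -0.90 ± 0.13, and in the paired fit 4 of 12 fell: the potassium channel genes Kcne1 (-4.32 ± 0.30) and Kcnq1 (-1.67 ± 0.17), the ATPase gene Atp13a5 (-1.86 ± 0.26) and the cotransporter gene Slc12a2 (-1.22 ± 0.18). Without the replicate block 1 of the 12 passed, Kcne1, and the other 3 had adjusted p = 1. Intermediate cell and melanocyte markers had a median of -0.54 ± 0.09 with 0 of 14 passing in either limma fit and 10, all lower, under an unadjusted p of 0.05 in the paired fit. The melanin genes Tyr and Slc45a2 differed by -1.13 ± 0.23 and -0.84 ± 0.12 (adjusted p = 0.0701 and 0.0704, paired limma). Basal cell markers had a median of -0.25 ± 0.16, and the connexin gene Gjb6 fell by 1.27 ± 0.14, the single call of 6 in the paired fit, which was lost without the replicate block (adjusted p = 1). Not all members of these lists fell. Mean differences were above 0 for 1 of 12 marginal, 3 of 14 intermediate and 2 of 6 basal cell markers, where 51.3% of all genes were. The summed level (linear scale) of marginal cell markers was 4763 to 8764 in the mutant and 10307 to 19288.5 in wild type, ranges that did not overlap. For intermediate cell markers it was 6628 to 11439.5 in the mutant and 9127 to 18274 in wild type. For basal cell markers it was 8302 to 18174 in the mutant and 13983 to 27847 in wild type. In both lists the ranges overlapped, but they set the pairing aside, and array medians differed between pairs. In pairs 1 to 3 the list medians were -0.46, -0.64 and -0.52 for intermediate cell markers. For basal cell markers they were -0.39, -0.27 and -0.08. The part of a changed cell makeup in the Slitrk4 values was not tested.

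Neuron, glial and sensory epithelium markers gave no call in either limma fit, with 6 of 18, 2 of 10 and 3 of 17 genes under an unadjusted p of 0.05 in the paired fit. All were higher in the mutant except 1 of the 2 glial genes. The neuron markers Nefh and Tubb3 differed by 0.56 ± 0.34 and 0.63 ± 0.43 (adjusted p = 0.449 and 0.494, paired). Schwann cell and glial markers had medians of 0.40, -0.06 and -0.07 in pairs 1 to 3, with 5 of 10 above 0. Their summed level ranged from 5620 to 7067 in the mutant and from 4078 to 7467 in wild type. S100b differed by -0.36 ± 0.16 and Cnp, a myelin enzyme gene, by 0.52 ± 0.51 (adjusted p = 0.450 and 0.674). Otog, which encodes otogelin of the tectorial membrane, differed by 1.08 ± 0.33 (adjusted p = 0.141, paired limma) and Sox2 by 0.79 ± 0.77 (adjusted p = 0.659).

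**Figure D3:**
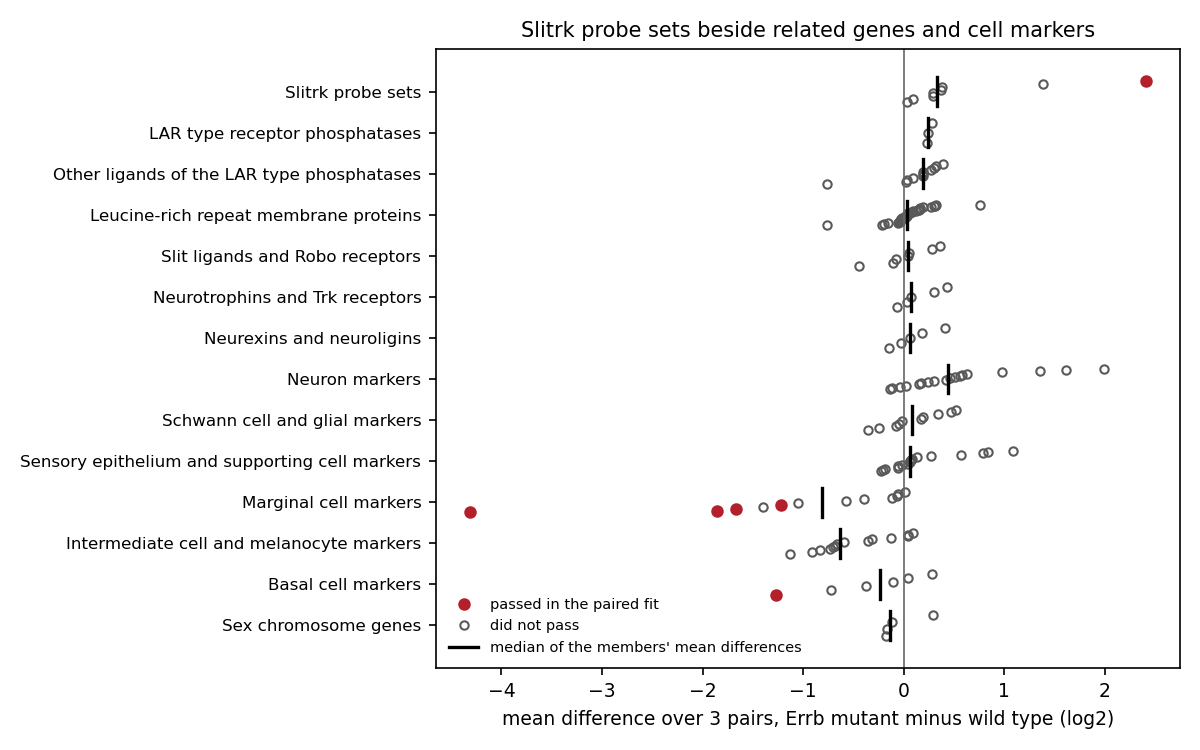
Mean difference over 3 pairs (Errb mutant minus wild type, log2) of the 8 Slitrk probe sets and of each gene in 13 lists, by its best expressed probe set. Red points passed in the paired fit, open points did not, and black bars are the median of the points in a row. One Slitrk4 probe set is the only red point to the right of 0, and the 5 red points to the left are 4 marginal cell markers and the basal cell marker Gjb6.

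The gene whose pair differences came nearest to those of Slitrk4 was Igsf1, an immunoglobulin family membrane protein gene that is also X-linked. Nearness was the root mean square distance between the 3 pair differences of 18193 best expressed probe sets, and it was 0.20 for Igsf1, which differed by 2.17, 2.34 and 2.27 in the pairs. The next were Rbfox1, a splicing factor gene (distance 0.64, difference 1.87 ± 0.50), Thbs4, a matrix protein gene (0.83, 1.70 ± 0.60), S100a6, a calcium-binding protein gene (0.97, 1.45 ± 0.22), and Ecel1, a peptidase gene of neurons (1.16, 1.45 ± 0.78). Few genes differed by as much as Slitrk4, so a small distance to it also picks genes with a large difference. For Slitrk6 the 5 nearest, at distances of 0.05 to 0.08, were Tet1, Gdf10, Gbp2, C1qb and Dnajb14. They were picked for closeness to the Slitrk6 differences of 0.094, 0.62 and 0.15. Their widest difference in pair 2 (0.53 to 0.60) therefore follows from the choice, and nothing is read from it.

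Slitrk4 and Slitrk2 lie on the X chromosome, Slitrk3 on chromosome 3 and Slitrk1, Slitrk5 and Slitrk6 on chromosome 14. Of 617 X-linked genes measured, 2 passed higher, Slitrk4 and Igsf1, and 1 passed lower, and the X-linked medians of 0, 0 and 0.03 in the pairs were close to those of all 18031 placed genes (0, 0 and 0.02). The third gene that passed higher by its best expressed probe set, S100a6, lies on chromosome 3. On chromosome 14, of 641 genes 0 passed higher and 1 lower. The measured genes next to Slitrk4 on the X chromosome had small differences, and none passed: 3830417A13Rik (0.19 ± 0.24, adjusted p = 0.750) and 4931400O07Rik (-0.05 ± 0.10, adjusted p = 0.868) on one side, and Ctag2 (0.08 ± 0.04, adjusted p = 0.773, all paired limma) and Slitrk2 on the other.

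Sex-linked transcripts, which reflect how many males and females a pool held, differed in both directions, and their part in the Slitrk4 values was not tested. Of 4 such genes measured 0 passed in either limma fit and 0 were under an unadjusted p of 0.05 in the paired fit. Xist, the X-inactivation transcript of females, differed by -0.23, 0.70 and 0.40 in pairs 1 to 3 (adjusted p = 0.751, paired limma). The Y-linked genes ran the other way, Eif2s3y by 0.79, -1.13 and -0.16, Kdm5d by 0.80, -1.30 and -0.025, and Uty by 0.63, -0.94 and -0.047. The Y-linked genes were higher in the mutant of pair 1 and lower in that of pair 2. In these 2 pairs the Slitrk4 difference was 2.45 and 2.30 by its best expressed probe set, and 1.63 and 0.84 by the other.

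**Figure D4:**
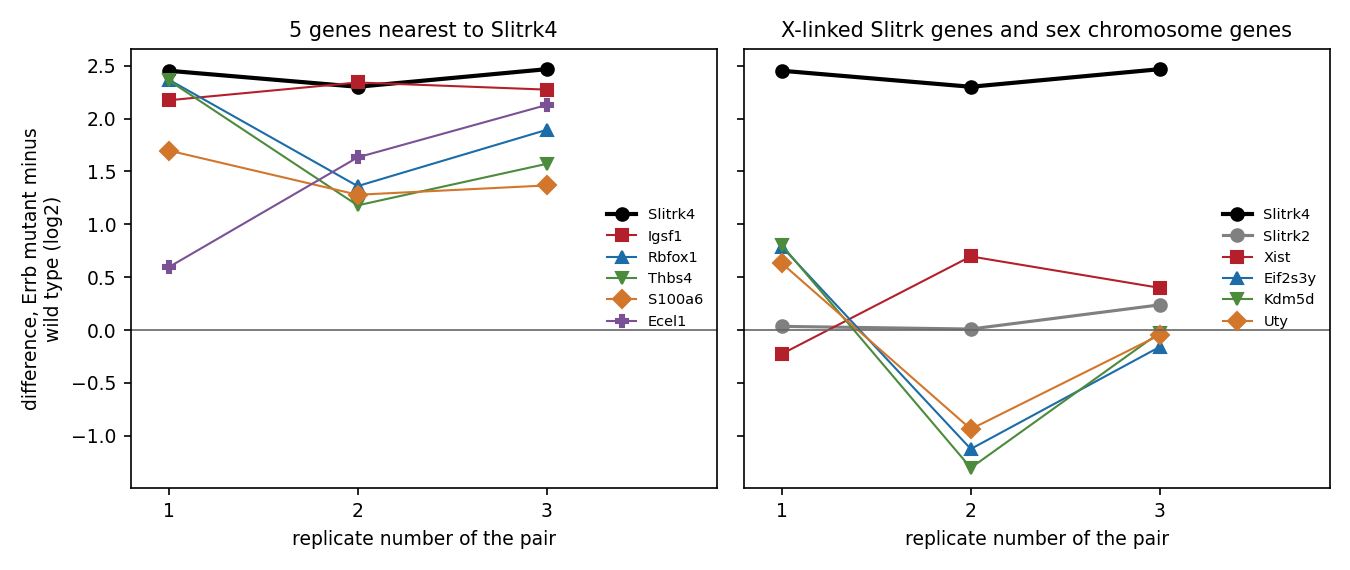
Difference (Errb mutant minus wild type, log2) in each pair for Slitrk4 and the 5 genes nearest to it (left), and for Slitrk4, Slitrk2 and the sex chromosome genes (right). Lines join the values of 1 gene, and the replicate numbers have no order. Slitrk4 is drawn by its best expressed probe set (2.30 to 2.47), and its other probe set, not drawn, gave 1.63, 0.84 and 1.67. The Y-linked genes lie between -1.30 and 0.80. The part of pool sex in the Slitrk4 values was not tested.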

How the data were processed

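RNA of 6 stria vascularis pools was measured on Affymetrix arrays, and the authors deposited log2 expression values. RMA is the tool named by the submitters' processing notes, without version or settings, and that the scale is log2 was judged from the values. Values were used as deposited. After leaving out 64 control probe sets, 45037 were fitted with limma 3.58.1 under R 4.3.3 (linear model with moderated variance, two-sided, Benjamini-Hochberg over all probe sets) with genotype and replicate number. Pairing rests on the replicate numbers in the labels and on correlations of same-numbered arrays' deviations of 0.879, 0.818 and 0.746, above the limit of 0.1. Such correlations would also follow from normalizing each pair on its own.

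Platform annotation gave 34945 probe sets 1 symbol, 932 several and 9160 none. A gene was represented by its best expressed probe set. RefSeq tables (GRCm38.p6) gave chromosomes and start windows. In simulated data for this paired comparison of 45037 probe sets, 86 of 100 changes of 1 and 99 of 100 changes of 2 (log2) were recovered, with 8 false calls. The simulated noise was independent between arrays, so this does not show how well the p-values hold here.

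The members and the 13 gene lists were chosen with earlier results of these data known. Besides all Slitrk probe sets, the rule named in every list its members past the threshold, at most 4, or the 2 of smallest p where there were none, the 5 nearest patterns of Slitrk4 and Slitrk6, the 2 measured genes on each side of Slitrk4 and the sex chromosome genes. Ptprs, Tectb, Lrrc4b, Lrrtm1, Snap25, Nefl and Nlgn2 were named after their values were seen. Listed genes that were not matched are not analysed here. Alternatives were no replicate block, leaving out each pair, quantile normalization, median centring, a filter on level, eBayes with trend and robust options, leaving out probe sets of the s, x and a classes, and averaging the probe sets of a gene. With 3 arrays a genotype, their number limits the precision.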

Additional observations from a re-analysis of the deposited data

How the results depend on the processing

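The Slitrk4 difference (best expressed probe set) lay between 2.38 and 2.46 over 9 alternatives and was above 0 in all. The replicate block, the filter on level, the eBayes options and the probe set classes could not move it. Under these it stayed at 2.41. It chose the family, so its calls support nothing. With no replicate block, 3 probe sets of the whole table and 0 Slitrk probe sets passed, against 42 and 1 in the paired fit, so these counts depend on the pairing. Leaving out 1 replicate number gave 0 to 7 probe sets and 0 to 1 Slitrk probe sets. The fits without a replicate had fewer arrays and 1 residual degree of freedom. The filter on level left 1 Slitrk probe set, that of Slitrk4, so the family median there was 2.41. Slitrk3 ranged from -0.034 without replicate 2 to 0.075 without replicate 3. The directions of the other 6 Slitrk probe sets did not change under 8 alternatives, of which some could not move a difference. List medians moved by less than their SD over pairs, but several SDs were as wide as the median. Where a pair was left out this was fixed in advance, as the list median is then the mean of the remaining pair medians. With the probe sets of a gene averaged, the phosphatase median was 0.02 in place of 0.25, and the glial one 0.22 in place of 0.09. Without replicate 1 the neuron median was 0.15 in place of 0.44, and the glial one -0.07. The sensory epithelium median was -0.01 without replicate 2, the Slit and Robo median -0.0051 with quantile normalization, and the sex chromosome median 0.34 without replicate 2 in place of -0.12. Signal over background is not given, which limits the low Slitrk values most.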

Other observations

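Other genes of the leucine-rich repeat, neuron and neuroligin lists, all chosen after their values were seen, are given by their values. Lrrc4b, a postsynaptic adhesion gene, read 5.56, 8.45 and 8.08 (log2) in Errb mutant replicates 1 to 3, against 8.23, 8.46 and 7.69 in the wild type replicates. Its difference was -2.67 in pair 1 and -0.0098 and 0.39 in the others, so 1 mutant array set the mean. Lrrtm1, another synaptic member of the leucine-rich repeat list, read 6.44, 5.54 and 5.23 in the mutant replicates, against 4.96, 5.03 and 4.95 in wild type. All mutant arrays lay above all wild type arrays, as they did for 0.764% of all probe sets. The differences were 1.48, 0.51 and 0.28 in the pairs, and Lrrtm1 did not pass (adjusted p = 0.582, paired limma). Among neuron markers, Snap25, a synaptic vesicle fusion gene, read 7.39, 4.10 and 3.55 in the mutant replicates, against 3.81, 3.77 and 3.40 in wild type. Nefl differed by 4.63, 0.82 and 0.54 in pairs 1 to 3. Neither passed (adjusted p = 0.744 and 0.715, paired limma). Of the 18 neuron markers, 15 had a mean difference above 0. Nlgn2, a neuroligin of inhibitory synapses, differed by 1.15 in pair 3, against 0 and 0.08 in pairs 1 and 2 (adjusted p = 0.750, paired limma).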
